A study of Mus musculus with 8 samples.

Results

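The genes described here carry insulin and insulin-like growth factor (IGF) signals in the liver. The 10 members were taken by symbol, out of 24079 symbols measured in both assays: the insulin receptor gene Insr, its adaptors Irs1 and Irs2, the kinases Akt1 and Akt2, the transcription factor Foxo1, the hormone gene Igf1, and Igfbp1, Igfbp2 and Igfals, which encode proteins that hold IGF in the blood. The rule uses symbols and no measured value, although the list was drawn up with earlier results of these data known. Livers came from male C57BL/6 mice that were kept from week 8 on a high-fat diet (fat supplied 45% of the calories), and they were collected at week 25. The sources differ on the length of the diet: another label gives 25 weeks of it, and the study's methods a shorter time. The HF group had the diet alone and the HB group also had 2% (w/v) betaine in the drinking water, so both groups share the high-fat diet. RNA-seq measured polyadenylated mRNA, and Ribo-seq measured ribosome-protected fragments (RPFs), which are the pieces of mRNA left under ribosomes after RNase digestion. Each assay had 2 libraries per group, HF1 and HF2 against HB1 and HB2. The study's methods describe the replicates as separate mice chosen for a body weight near the mean, while the labels describe total RNA pooled from each preparation before library construction. If preparations were pooled, the p-values and SDs below measure only the spread between libraries, which may be technical, and n is therefore given as libraries.

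Insulin binds its receptor on the hepatocyte, the receptor phosphorylates the Irs adaptors, and these recruit PI3-kinase, which leads to activation of Akt. Akt phosphorylates Foxo1 and keeps it out of the nucleus, so that genes Foxo1 drives, such as Igfbp1 and the gluconeogenic gene G6pc, are expressed less after a meal. The liver is also the main source of circulating IGF-1, whose gene responds to growth hormone, and most IGF-1 in blood travels with a binding protein and the acid-labile subunit encoded by Igfals. Phosphorylation of Irs, Akt and Foxo1 was not measured by either assay.

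The values are RPKM, the reads of a gene relative to its length and to the size of its library. Low RPKM values differ by multiples of a single read, which gave library totals of 11661207 to 22543471 reads in RNA-seq. In Ribo-seq they gave 387980 and 1056546 reads for HF1 and HF2 but 257086 and 141890 for HB1 and HB2. The median member was covered by 705.5 to 1274 reads per RNA-seq library. It was covered by 34.5 and 91 RPF reads in HF1 and HF2 and by 10 and 9 in HB1 and HB2, so the RPF values of the HB group are the least precise of the data. Summed over 8 hepatocyte markers, mRNA was 46426 and 48452 RPKM in the HF group and 58233 and 54572 RPKM in the HB group, and no marker was at 0 in any library. Their RPF summed to 46605 and 39199 RPKM in HF and 45338 and 47248 in HB. The 5 erythroid markers summed to 523 to 738 RPKM in 3 RNA-seq libraries and to 2249 RPKM in HB2. All 5 had a positive mRNA log2 fold change (median 1.09), 3 of them with both HB libraries above both HF libraries and 1, Hbb-bs, called higher. In Ribo-seq they summed to 2559 RPKM in HB1 and to 381 in HB2, the reverse order, beside 1109 and 617 in HF1 and HF2. The 7 stellate cell markers summed to 38.8 and 36.6 RPKM in the HF group and to 74.9 and 46.6 RPKM in the HB group. Dcn made up most of that sum (21.9 and 22.4 RPKM in HF, 57.8 and 30.6 in HB), and 4 of the 6 stellate markers tested had a negative log2 fold change in mRNA. In RPF the 7 markers summed to 151 and 133 RPKM in HF and 101 and 93.7 in HB. All 6 tested there were negative (median -1.11) with 0 called, and 5 had both HB libraries below both HF libraries (33.2% of all tested genes). All 7 Kupffer cell markers had a negative RPF log2 fold change (median -0.74, 1 called lower), as did all 6 endothelial markers (median -0.79, 2 called lower), where all tested genes had a median of -0.43, with 70.4% negative and 7.86% called lower. In mRNA 5 of the 7 Kupffer cell markers were positive (median 0.33), with 0 called, and 2 of the 6 endothelial markers were (median -0.49). The 5 lymphocyte markers summed to 5.86 and 8.66 RPKM in HF mRNA and to 3.18 and 2.87 in HB mRNA. The part of these differences in the results below was not tested, and in bulk liver fewer cells of a type and less RNA per cell cannot be told apart.

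In mRNA the genes of secreted proteins stood at the top of the members, and in both assays the Irs adaptors stood at the bottom. In HF mRNA the order of mean RPKM was Igf1 (178), Igfbp2 (173), Igfals (65.8), Igfbp1 (61.9), Akt2 (21.1), Akt1 (15.8), Insr (13.0), Foxo1 (12.9), Irs1 (2.81) and Irs2 (0.510). Among neighbours in this order, the libraries of Igf1 and Igfbp2, of Igfals and Igfbp1, of Igfbp1 and Akt2, and of Insr and Foxo1 overlapped, while the others stood apart. Igf1 ranked 479 of the 15847 genes with HF mRNA above 0. In the HB group the order began with Igfbp2 (288), and Igf1 (72.5) came next with rank 1049 of 16215 genes. No neighbours in the HB order overlapped. In RPF the order began in both groups with Igf1 (119 RPKM in HF and 74.8 in HB) and Igfbp2 (102 and 64.3), and ended with Irs1 (8.49 and 3.58) and Irs2 (4.61 and 0.805). The receptor gene Insr stood higher there than in mRNA, with 46.4 RPKM in HF, above Igfals (33.3). In HB its mean was 36.9, above those of Igfbp1 (33.3) and Igfals (26.7). The HB libraries of Igfbp1 (23.2 to 43.5 RPKM) and of Igfals (7.28 to 46.2) both spanned those of Insr. All 8 members above Irs1 overlapped with a neighbour in the HB group.

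**Figure D1:**
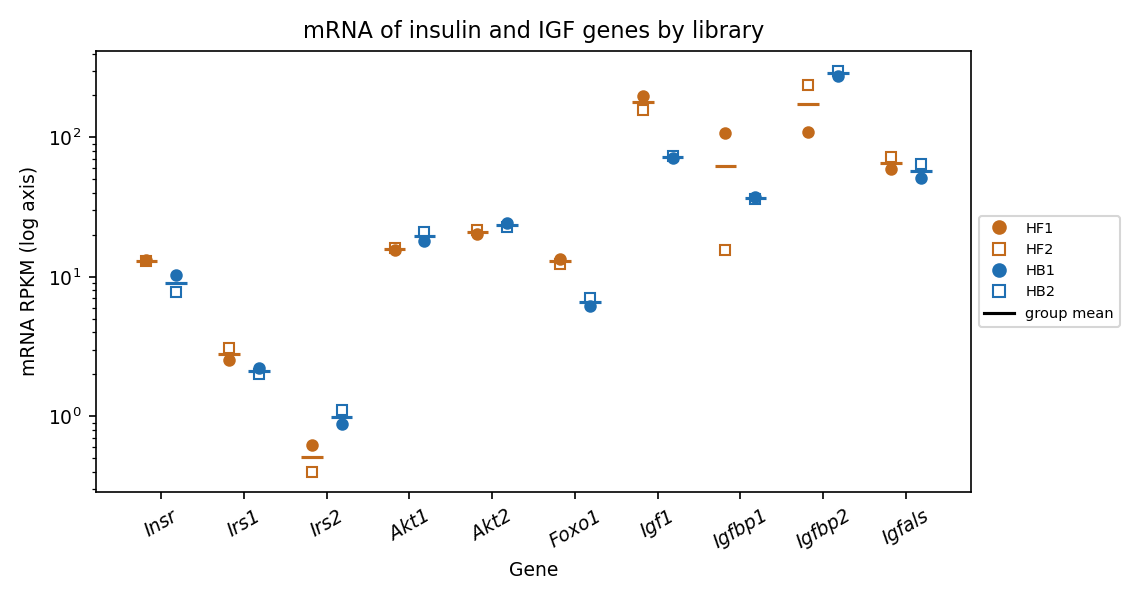
mRNA level of the members in each RNA-seq library (RPKM, log axis; points are the 2 libraries of each group and bars their mean). Igf1, Foxo1, Insr and Irs1 have both HB points below both HF points, and Akt1, Akt2, Igfbp2 and Irs2 have both HB points above.

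At the mRNA level Igf1 was the member that was called changed, and it fell to 40.7% of its HF mean. A gene was called where its log2 fold change passed 1 in size and its unadjusted limma p was under 0.001, in a fit on log2(RPKM + 1) of all genes whose RPKM averaged 1 or more. Of the 9 members tested, 1 was called lower and 0 higher, while 6.56% of the 10687 tested genes were called lower and 2.30% higher. Foxo1, at 50.8% of its HF mean, also had an adjusted p below 0.05 but missed the fold threshold. With Igf1 it makes 2 members that were lower at that adjusted p, against 19.1% of all tested genes, and 0 members were higher, against 7.92%. With the fold threshold and that adjusted p together, 1 member was lower (12.7% of tested genes) and 0 were higher (5.01%). The count of 1 was 0 without HF1. The members had a median log2 fold change of -0.19, equal at that precision to the median of all tested genes (-0.19). The HB libraries lay below both HF libraries for 4 members (43.3% of tested genes) and above for 3 (24.8%), and 2 overlapped.

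At the RPF level all 10 members had a lower fitted value in the HB group, and Akt1 and Foxo1 were called lower. A call in RPF needed the same fold with an unadjusted limma p under 0.05. The filter took the mean RPKM over all libraries of the assay, and Irs2 met it only by its HF mean (4.61 RPKM, against 0.805 in HB). The 2 members called lower stand against 7.86% of the 11190 tested genes, and 0 members were called higher against 1.58%. The median log2 fold change was -0.77 for the members and -0.43 for all tested genes, of which 3311 had a positive value. At an adjusted p under 0.05 limma called 0 of the 11190 genes, while 1122 had an unadjusted p under 0.05. The HB libraries lay below both HF libraries for 7 members (33.2% of tested genes) and above for 0 (9.07%). Without HF1 or without HF2 neither Akt1 nor Foxo1 was called, and the 1 member called lower was Irs2, which had 1 read in each HB library. Without HB2 the count was 5, with Irs2, Igfbp2 and Igfals beside Akt1 and Foxo1.

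Translation efficiency (TE) is the ratio of RPF RPKM to mRNA RPKM, taken here between libraries of the same group and number, although no label says which RNA and Ribo libraries share an animal. The deviations of same-numbered RNA and Ribo libraries from the means of their groups correlated across genes at -0.00239 in HF and -0.0774 in HB. No member was called in TE, where a call needed a log2 change of more than 2 and an unadjusted limma p under 0.05. This gives 0 of 9 members in either direction, against 4.60% of 9455 tested genes lower and 1.49% higher. At an adjusted p under 0.05 limma called 0 of all tested genes, with 1154 at an unadjusted p under 0.05. Akt1 had the lowest p of the members, with a log2 TE change of -1.46 (SE 0.53, unadjusted p = 0.0329, limma adjusted p = 0.378). The median log2 TE change was -0.57 for the members and -0.35 for all tested genes. On the fitted scale the HB libraries lay below both HF libraries for 5 members (31.7% of tested genes) and above for 1, Igf1 (14.0%).

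**Figure D2:**
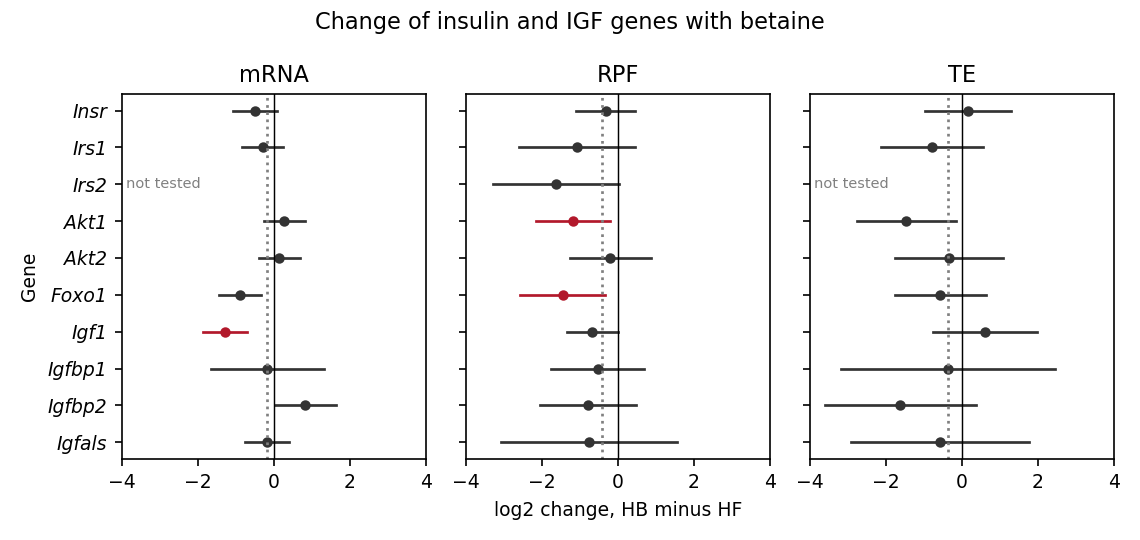
Log2 fold change of each member, HB minus HF, in mRNA, RPF and TE (points, with 95% confidence intervals from limma as bars; red points are called, dotted lines are the medians of all tested genes). Igf1 is red in mRNA at -1.28, Akt1 and Foxo1 are red in RPF at -1.18 and -1.45, and no point is red in TE.

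Igf1 (chr10:87858265-87937042, plus strand, GRCm38) encodes insulin-like growth factor 1. Its mRNA was 198 RPKM in HF1, 158 in HF2, 71.2 in HB1 and 73.7 in HB2. Both HB libraries were close to each other and far below both HF libraries. The group means were 178 ± 28.7 (SD, n = 2) in HF and 72.5 ± 1.79 in HB, a log2 fold change of -1.28 (SE 0.26, 95% CI -1.86 to -0.70, limma unadjusted p = 0.000645, adjusted p = 0.00931). Over 14 alternatives the log2 fold change ran from -1.44 to -1.004 and the adjusted p from 0.00111 to 0.0818. The call was lost without HF1 (log2 -1.11, unadjusted p = 0.0129) or without HF2 (log2 -1.44, unadjusted p = 0.00138), where a lone library stands for the group. With all 4 libraries it was also lost at a common median (log2 -1.004, unadjusted p = 0.00433) and without the filter on low values (unadjusted p = 0.00141).

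Igf1 RPF was 124 RPKM in HF1, 115 in HF2, 72.9 in HB1 and 76.7 in HB2, from 335, 851, 131 and 76 reads. The groups did not overlap here either, but the HB mean was 62.6% of the HF mean, against 40.7% in mRNA. The log2 fold change in RPF was -0.67 (SE 0.26, 95% CI -1.34 to 0.01, limma unadjusted p = 0.0518), which was not called. At a common sum it was called, at -1.53 (unadjusted p = 0.0125). Summed over libraries, the ratio of HB to HF reads per total was 0.632, with an exact 95% binomial interval of 0.543 to 0.733 that covers counting error only. TE of Igf1 was 0.623 in HF1, 0.730 in HF2, 1.02 in HB1 and 1.04 in HB2, so each HB library had more footprints per mRNA than either HF library. The groups did not overlap, but the log2 TE change of 0.61 was not called (SE 0.56, 95% CI -0.76 to 1.98, limma adjusted p = 0.680), and it was -0.21 when RPKM was rescaled to a common sum.

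Igfbp1 (chr11:7197782-7202546, plus strand) encodes a short-lived IGF binding protein that insulin represses in liver. Its mRNA was 108 RPKM in HF1 and 15.5 in HF2, and 37.4 and 36.1 in HB1 and HB2. The HB libraries agreed closely and both lay between the HF libraries. The log2 fold change was -0.17 (SE 0.66, 95% CI -1.66 to 1.32, limma adjusted p = 0.871). It turned to 1.20 without HF1 and was -1.53 without HF2, where it was called lower (unadjusted p = 0.000527), so a single HF library decides its direction. G6pc, another Foxo1 target, had the same order of HF libraries, with mRNA of 304 RPKM in HF1 and 105 in HF2 against 90.5 and 123 in HB1 and HB2. Igfbp1 RPF was 35.6 RPKM in HF1, 60.4 in HF2, 43.5 in HB1 and 23.2 in HB2, with overlapping groups and the order of the HF libraries turned round. Its TE was 0.329 in HF1 and 3.90 in HF2, the widest gap between libraries of a group among the members tested in TE.

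Igfbp2 (chr1:72824503-72852474, plus strand) encodes the binding protein that was the most abundant member in HB mRNA. Its mRNA was 109.8 RPKM in HF1, 236 in HF2, 276 in HB1 and 301 in HB2. Both HB libraries were above both HF libraries, but the HF libraries were further apart than HF2 was from either HB library. With the replicate block the limma adjusted p of its mRNA change was 0.0374, at a log2 fold change of 0.83 that is short of the fold threshold. The log2 fold change was 0.83 (SE 0.36, 95% CI 0.03 to 1.63, limma adjusted p = 0.110), and it was 0.29 without HF1 and 1.38 without HF2. RPF of Igfbp2 was 94.2 RPKM in HF1, 109.9 in HF2, 37.6 in HB1 and 90.9 in HB2, with only 9 and 12 reads in the HB libraries. Here both HB libraries were below both HF libraries, opposite to the mRNA. TE was 0.858 and 0.465 in the HF group and 0.136 and 0.302 in the HB group, with a log2 change of -1.62 (SE 0.82, 95% CI -3.61 to 0.37, limma adjusted p = 0.476) that was not called. Without HB2 it was called, at -2.18 (unadjusted p = 0.0112), and without HB1 it was -1.06. At a common sum it was also called (-2.44). The RPF log2 fold change behind it was -0.79 (SE 0.48, limma adjusted p = 0.621), and it was -1.41 and called without HB2 (unadjusted p = 0.0104) and -0.16 without HB1. It was also called at a common sum (log2 -1.65).

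Igfals (chr17:24865997-24882010, plus strand) encodes the acid-labile subunit, which completes the large IGF complex of the blood. Its mRNA was 59.8 and 71.8 RPKM in the HF group and 51.4 and 64.3 in the HB group, with overlapping libraries. Its RPF was 41.0 RPKM in HF1, 25.7 in HF2, 7.28 in HB1 and 46.2 in HB2, the last 2 from 4 and 14 reads. The RPF log2 fold change of -0.76 (SE 0.89, limma adjusted p = 0.761) was 0.49 without HB1 and -2.02 without HB2, so at this depth a single HB library sets its direction.

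**Figure D3:**
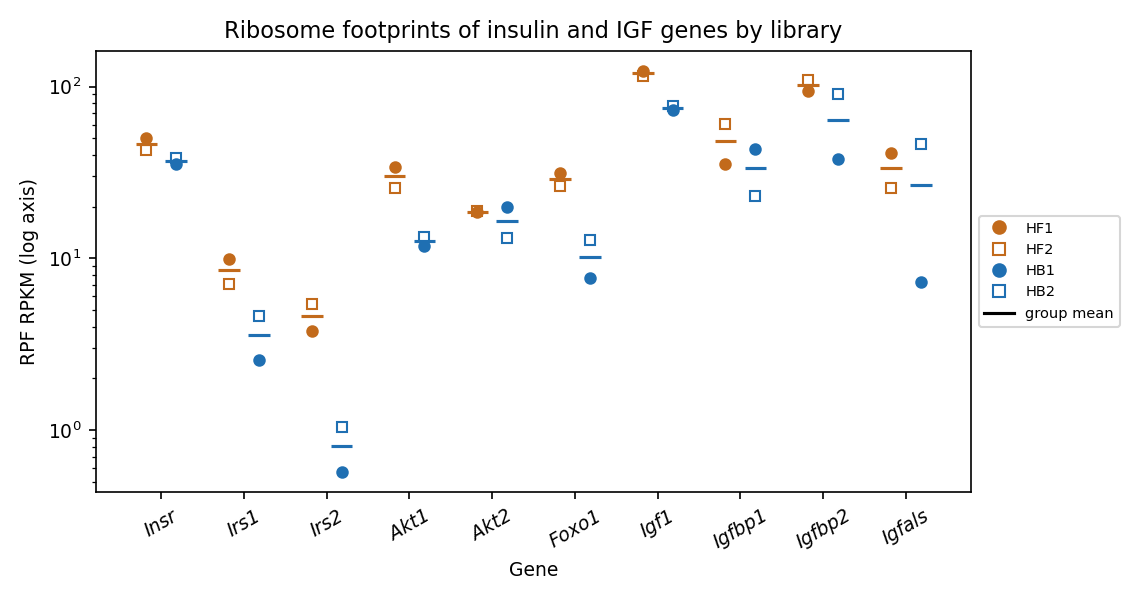
RPF level of the members in each Ribo-seq library (RPKM, log axis; points are the 2 libraries of each group and bars their mean). Both HB points are below both HF points for 7 members, and Akt2, Igfbp1 and Igfals overlap.

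Insr (chr8:3122061-3279617, minus strand) encodes the insulin receptor. Its mRNA was 13.1 and 12.9 RPKM in the HF group and 10.3 and 7.74 in the HB group. The groups did not overlap, and the HB mean was 69.4% of the HF mean. The log2 fold change of -0.50 (SE 0.26, 95% CI -1.07 to 0.08, limma adjusted p = 0.174) was not called. RPF was 49.9 and 43.0 RPKM in the HF group and 35.3 and 38.4 in the HB group, again without overlap, with a log2 fold change of -0.32 (SE 0.30, limma adjusted p = 0.705). This was 0.0035 at a common median, and at a common sum it was called, at -1.18 (unadjusted p = 0.0421). TE of Insr was 3.79 and 3.33 in HF and 3.42 and 4.96 in HB, which overlapped.

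The adaptors Irs1 and Irs2 couple the receptor to PI3-kinase. Irs1 (chr1:82233101-82291416, minus strand) had mRNA of 2.54 and 3.08 RPKM in the HF group and 2.23 and 1.99 in the HB group. Both HB libraries were lower, but the 95% interval of the fit covered no change (log2 -0.29, SE 0.24, 95% CI -0.83 to 0.25, limma adjusted p = 0.390). Irs1 RPF was 9.85 RPKM in HF1, 7.13 in HF2, 2.55 in HB1 and 4.61 in HB2, from 35, 69, 6 and 6 reads. The log2 fold change of -1.07 passed the fold threshold and missed the p (SE 0.59, 95% CI -2.60 to 0.46, limma unadjusted p = 0.131). It was called with voom (log2 -1.25, unadjusted p = 0.0458) and at a common sum (log2 -1.82, unadjusted p = 0.0292).

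Irs2 (chr8:10984681-11008458, minus strand) had more mRNA and fewer footprints in both HB libraries than in either HF library. Its mRNA was 0.620 and 0.401 RPKM in the HF group and 0.873 and 1.10 in the HB group, from 29, 19, 79 and 80 reads. The HB mean was 194% of the HF mean with no overlap, but the gene was below the filter on low values, so it has no test in mRNA or TE. Without the filter its mRNA log2 fold change was 0.40 (SE 0.15, limma adjusted p = 0.153). Irs2 RPF was 3.79 RPKM in HF1 and 5.43 in HF2, from 10 and 39 reads, and 0.573 and 1.04 in HB1 and HB2, each from 1 read. In RPF the gene met the filter only by its HF mean. The summed ratio of HB to HF reads per total was 0.148 (exact 95% binomial interval 0.0174 to 0.563), and the RPF log2 fold change of -1.63 was not called (SE 0.64, limma unadjusted p = 0.0525). It was called at a common sum (log2 -2.23, unadjusted p = 0.0160), with no intensity trend (unadjusted p = 0.0206), with voom (unadjusted p = 0.0136) and without HF1 (unadjusted p = 0.0405), HF2 (unadjusted p = 0.0468) or HB2 (unadjusted p = 0.0318), each time resting on at most 2 HB reads. Without the filter the log2 TE change of Irs2 was -2.03 (unadjusted p = 0.00771, limma adjusted p = 0.361), which is past the threshold for a call.

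Akt1 (chr12:112653821-112674884, minus strand) encodes the more widely expressed of both kinases. Its mRNA was 15.6 and 16.1 RPKM in the HF group and 18.0 and 21.0 in the HB group. Each HB library was slightly above each HF library (log2 0.28, SE 0.24, limma adjusted p = 0.412). Its RPF was 34.2 RPKM in HF1, 25.8 in HF2, 11.8 in HB1 and 13.3 in HB2, from 35, 72, 8 and 5 reads. Both HB libraries were well below either HF library, and the log2 fold change was -1.18 (SE 0.38, 95% CI -2.16 to -0.20, limma unadjusted p = 0.0274, adjusted p = 0.493). The summed read ratio was 0.440 (exact 95% binomial interval 0.227 to 0.785). TE was 2.19 and 1.61 in the HF group and 0.656 and 0.635 in the HB group. The RPF call was lost without HF1 (log2 -0.99, unadjusted p = 0.133) or without HF2 (log2 -1.38, unadjusted p = 0.0642). With all libraries it was also lost at a common median (log2 -0.86, unadjusted p = 0.0853), with no intensity trend (unadjusted p = 0.0505), with the replicate block (unadjusted p = 0.0558) and with voom (unadjusted p = 0.0654). Over 13 alternatives the log2 fold change ran from -2.01 to -0.86 with a limma adjusted p of 0.163 to 1.

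Akt2 (chr7:27591552-27640826, plus strand) encodes the kinase that carries most of the metabolic response to insulin. Its mRNA was 20.4 and 21.7 RPKM in the HF group and 24.2 and 22.6 in the HB group. Its RPF was 18.6 and 18.8 RPKM in HF and 20.0 and 13.2 in HB. The RPF values overlapped and the log2 fold change was -0.19 (SE 0.41, 95% CI -1.25 to 0.86, limma adjusted p = 0.868), which was 0.09 without HB2. The interval is wide enough to hold the value of Akt1, and the difference between both genes was not tested.

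Foxo1 (chr3:52268336-52353221, plus strand) encodes the transcription factor that Akt inhibits. Its mRNA was 13.4 and 12.4 RPKM in the HF group and 6.13 and 6.99 in the HB group. Both HB libraries were well below both HF libraries. The means were 12.9 ± 0.712 (SD, n = 2) and 6.56 ± 0.611, with a log2 fold change of -0.88 (SE 0.25, 95% CI -1.43 to -0.33, limma adjusted p = 0.0275). Over 14 alternatives that log2 fold change ran from -0.98 to -0.61, with an adjusted p of 0.0138 to 0.218. Without HF1 the adjusted p was 0.218 and without HF2 it was 0.123, and with all libraries it was 0.0961 at a common median and 0.0691 without the filter.

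Foxo1 RPF was 31.6 RPKM in HF1, 26.4 in HF2, 7.71 in HB1 and 12.7 in HB2, from 68, 155, 11 and 10 reads. The groups did not overlap, and the HB mean was 35.2% of the HF mean. Foxo1 was called lower in RPF with a log2 fold change of -1.45 (SE 0.43, 95% CI -2.57 to -0.34, limma unadjusted p = 0.0206, adjusted p = 0.493). The summed read ratio was 0.341 (exact 95% binomial interval 0.207 to 0.534). Over 13 alternatives the log2 fold change ran from -2.28 to -1.13 with an adjusted p of 0.150 to 1, and the call was lost without HF1 (unadjusted p = 0.156) or without HF2 (unadjusted p = 0.113), and with all libraries at a common median (log2 -1.13, unadjusted p = 0.0599). TE was 2.35 and 2.13 in the HF group and 1.26 and 1.82 in the HB group, which did not overlap, and its log2 change was -0.57 (SE 0.49, limma adjusted p = 0.659).

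**Figure D4:**
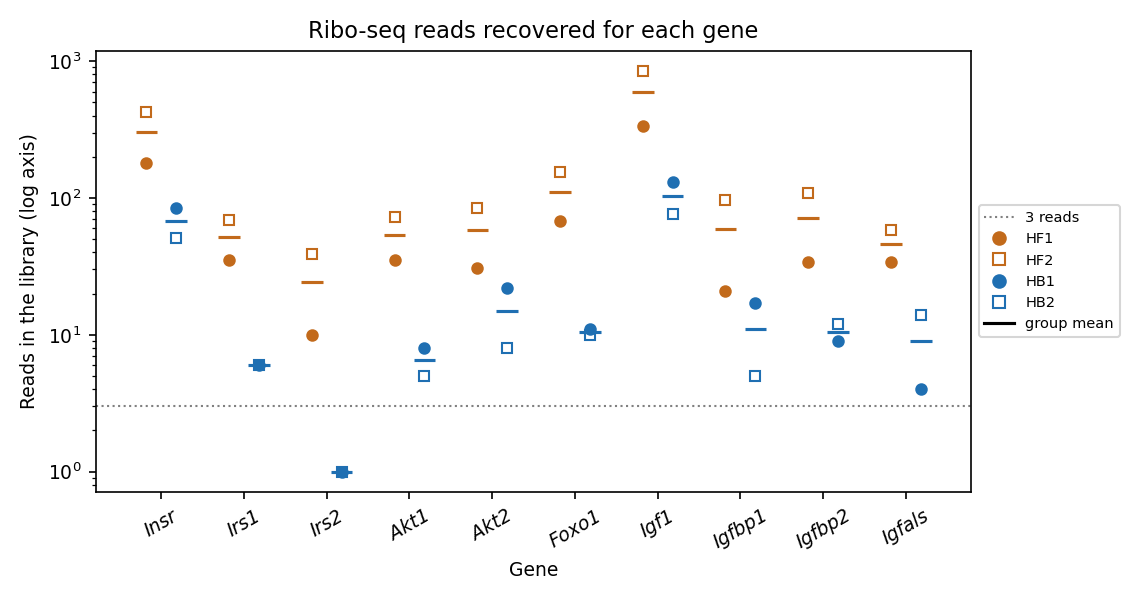
Whole RPF reads behind each member in each Ribo-seq library (log axis; points are libraries, bars are group means and the dotted line marks 3 reads). The HB libraries hold 1 to 131 reads per member against 10 to 851 in the HF libraries, and Irs2 lies below the line in both HB libraries.

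The gene length behind the RPKM was recovered from the 1-read steps and was not the same in both assays for every member. It was the same for Insr, Irs1, Foxo1 and Igfbp1. For Irs2 it was 4012 bases in RNA-seq and 6794 in Ribo-seq, for Akt2 2321 and 4286, and for Igfbp2 1327 and 930. This scales the TE level of those genes and cancels between HB and HF in the plain ratio, but not fully in the fit, where 1 is added to each RPKM.

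Promoter windows are shown for 4 members that hold letters known from insulin-responsive promoters, since Foxo1, whose mRNA and RPF were both lower in the HB group, binds such letters. The windows are the 250 bases before the start in RefSeq (GRCm38.p6), and 9 of the 10 members matched, with 16 windows. The letters searched, on both strands, were CAAAACA, the core of the insulin response element, and GTAAACA, a core shared by Foxo and Foxa factors. CAAAACA was in 3 of the 16 windows, those of Igfbp1, Irs1 and Irs2, against 5.56% of all 32851 windows of that length. GTAAACA was in 2 of the 16, a window each of Akt1 and Igfals, against 3.17%, and the Igfals window is not printed here. Each sequence runs 5′ to 3′ on the strand of its gene, and the capitals mark the match, as TGTTTTG or TGTTTAC where it lies on the opposite strand.
Igfbp1, chr11:7197652-7197712, plus strand, match 108 to 102 bases before the start: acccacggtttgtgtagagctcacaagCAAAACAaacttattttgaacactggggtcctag
Irs1, chr1:82291517-82291577, minus strand, match 111 to 105 bases before the start: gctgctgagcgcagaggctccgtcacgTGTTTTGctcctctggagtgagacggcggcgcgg
Irs1, chr1:82291440-82291498, minus strand, match 32 to 26 bases before the start: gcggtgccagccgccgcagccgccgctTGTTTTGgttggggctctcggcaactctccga
Irs2, chr8:11008933-11008993, minus strand, match 37 to 31 bases before the start: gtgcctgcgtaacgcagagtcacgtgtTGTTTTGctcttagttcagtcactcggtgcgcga
Akt1, chr12:112675012-112675072, minus strand, match 161 to 155 bases before the start: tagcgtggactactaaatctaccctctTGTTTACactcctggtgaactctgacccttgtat
The 3 members with CAAAACA did not share a direction in mRNA. Irs1 was lower in both HB libraries, Irs2 was higher in both, and Igfbp1 overlapped. A match is a description of the letters, and binding was not measured. The Irs1 and Irs2 windows were rich in G and C (72.4% and 72.8%, against a median of 52.4% over all windows), while the Igfbp1 window had 53.2%.

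A further 97 genes of the insulin, IGF and growth hormone pathways were listed by role. In mRNA 79 of them were tested, with 1 called higher and 3 called lower, or 1.27% and 3.80%, against 2.30% and 6.56% of all tested genes. Their median log2 fold change was -0.23, and that of all tested genes was -0.19. Eif4ebp2, which encodes a repressor of cap-dependent translation that mTOR inactivates, rose from 2.26 and 2.18 RPKM in HF to 18.0 and 6.72 in HB (log2 1.91, SE 0.38, limma adjusted p = 0.00904). Of the 15 mTOR genes tested, 1 was called higher, Eif4ebp2, and 2 lower, against 2.30% and 6.56% of all tested genes. Rictor, the defining subunit of the mTOR complex that phosphorylates Akt, fell from 6.43 and 6.06 RPKM to 2.09 and 2.03 (log2 -1.24, SE 0.24, limma adjusted p = 0.00820). Rps6kb2, an S6 kinase gene, fell from 32.0 and 28.9 RPKM to 9.22 and 13.4 (log2 -1.37, limma adjusted p = 0.00837). Bcl6, a repressor that acts against growth hormone signalling through Stat5, fell from 12.9 and 24.9 RPKM to 4.52 and 6.15 (log2 -1.59, limma adjusted p = 0.00980). Without the filter on low values none of these 4 calls was made, since 0 listed genes were then called in either direction. All 3 calls of lower mRNA were also lost at a common median (0 called), and that of Eif4ebp2 with voom (0 called higher). The count called lower was 1 without HF1, 1 without HB1 and 6 without HB2, and that called higher was 2 whichever library was left out.

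Of the receptors of the growth axis, Ghr did not pass the mRNA threshold and Igf1r was too low to be tested in mRNA. Ghr, the growth hormone receptor gene upstream of Igf1, had 58.3 and 73.2 RPKM in HF and 120 and 84.5 in HB (log2 0.62, SE 0.28, limma adjusted p = 0.127), which is opposite in sign to Igf1. Its RPF was 162 and 182 RPKM in HF and 151 and 155 in HB. Igf1r mRNA, for the IGF-1 receptor, was 0.494 and 0.388 RPKM in HF and 0.170 and 0.139 in HB, below the filter in every library. Igf2 was at 0.0562 to 0.479 RPKM in mRNA and listed at 0 in all Ribo-seq libraries. Among the binding proteins, Igfbp4 was more abundant than any member, with mRNA of 605 and 637 RPKM in HF and 805 and 1109 in HB (log2 0.61, limma adjusted p = 0.151). Igfbp3 had 15.7 and 8.73 RPKM in HF and 8.10 and 4.30 in HB (log2 -0.88, limma adjusted p = 0.0883).

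In RPF 81 of the listed genes were tested, with 1 called higher and 9 lower, or 1.23% and 11.1%, against 1.58% and 7.86% of all tested genes. Their median log2 fold change was -0.53. Among those called lower, Mlst8 and Pdk4 met the filter only by their HF means. The count called lower was 1 without HF1, 1 without HF2, 16 without HB1 and 14 without HB2, and that called higher was 0, 0, 4 and 3. Genes of the receptor and adaptor list called lower were Grb2, an adaptor that leads to Ras, and Ptpn11, the phosphatase Shp2. Grb2 had RPF of 19.0 and 15.4 RPKM in HF and 5.74 and 5.20 in HB, the latter from 4 and 2 reads (log2 -1.49, limma unadjusted p = 0.0230). Ptpn11 had 30.8 and 23.8 RPKM in HF and 9.73 and 13.8 in HB (log2 -1.16, limma unadjusted p = 0.0380), while its mRNA was higher in both HB libraries. Pik3c2a, a class II PI3-kinase, had the lowest p of the listed genes, with 31.1 and 24.1 RPKM in HF and 5.80 and 7.01 in HB (log2 -1.94, SE 0.42, limma unadjusted p = 0.00604).

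Of the 12 listed Foxo relatives and liver Foxo targets, 2 were called lower in RPF, G6pc and Pdk4, against 7.86% of all tested genes, and of the 11 tested in mRNA 0 were called, against 6.56% lower and 2.30% higher. Pck1, which encodes the gluconeogenic enzyme PEPCK and was picked from that list after its values were seen, had RPF of 988 and 1037 RPKM in HF and 596 and 682 in HB and was not called (log2 -0.67, limma unadjusted p = 0.0562). G6pc, which encodes the catalytic subunit of glucose-6-phosphatase, had 177 and 224 RPKM in HF and 105 and 74.9 in HB (log2 -1.16, SE 0.31, limma unadjusted p = 0.0148), from 61 reads in HB1 and 24 in HB2. Pdk4, a kinase that inhibits pyruvate dehydrogenase, had 4.48 and 4.11 RPKM in HF and 1.13 and 0 in HB. It met the filter only by its HF mean. Pdk4 had 1 read over both HB libraries, and its summed read ratio of 0.172 has an exact 95% binomial interval of 0.00417 to 1.07. Prlr, the prolactin receptor gene, had 42.8 and 41.6 RPKM in HF and 19.9 and 19.8 in HB (log2 -1.05, limma unadjusted p = 0.0222). Trib1, a pseudokinase gene, had 26.9 and 24.0 RPKM in HF and 8.70 and 1.75 in HB (log2 -2.35, limma unadjusted p = 0.0237). In HB1 and HB2, 3 reads per kilobase make 11.7 and 21.1 RPKM, and both Trib1 values lie below that. Trib1 mRNA was also lower, from 34.0 and 25.1 RPKM to 12.9 and 14.3 (log2 -1.05, limma adjusted p = 0.0182), and was not called. Igfbp7 had 16 and 40 reads in HF and 1 and 2 in HB, a summed ratio of 0.194 (exact 95% binomial interval 0.0388 to 0.597). Mlst8, an mTOR subunit, had 6 and 5 reads in HF and 0 in both HB libraries, which is 4.59 and 1.41 RPKM in HF. Mlst8 met the filter only by its HF values. It was called lower (log2 -1.88, limma unadjusted p = 0.0494), but the limit set by 3 reads is 3.47 RPKM in HB1 and 6.28 in HB2, and the exact 95% binomial interval of its summed read ratio reaches up to 1.44.

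Prkcd, which encodes protein kinase C delta, an inhibitor of insulin signalling in liver, was the listed gene called higher in RPF. Its RPF was 4.64 and 5.12 RPKM in HF and 15.4 and 15.2 in HB, from 5, 15, 11 and 6 reads (log2 1.47, SE 0.46, limma unadjusted p = 0.0250, adjusted p = 0.493). Its mRNA moved the other way, from 7.42 and 8.11 RPKM to 3.72 and 3.65 (log2 -0.90, limma adjusted p = 0.0245). In TE 76 listed genes were tested, with 2 called higher and 2 lower, or 2.63% in each direction, against 1.49% and 4.60% of all tested genes. Prkcd (log2 2.38, SE 0.48, limma unadjusted p = 0.00251, adjusted p = 0.328) and Bcl6 (log2 2.28) were called higher. Eif4ebp2 (log2 -2.59) and Igfbp7 (log2 -2.77) were called lower. For Bcl6 and Eif4ebp2 the mRNA, by which TE divides, had been called in the opposite direction, and neither was called in RPF. Bcl6 RPF was 7.06 and 3.59 RPKM in HF and 4.10 and 17.8 in HB (log2 0.69, limma unadjusted p = 0.445). Eif4ebp2 RPF was 101 and 80.0 RPKM in HF and 56.6 and 55.2 in HB (log2 -0.68, limma unadjusted p = 0.0672). Without HF1, HF2, HB1 or HB2 the count called higher was 2, 1, 4 and 3, and that called lower was 0, 1, 6 and 5.

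**Figure D5:**
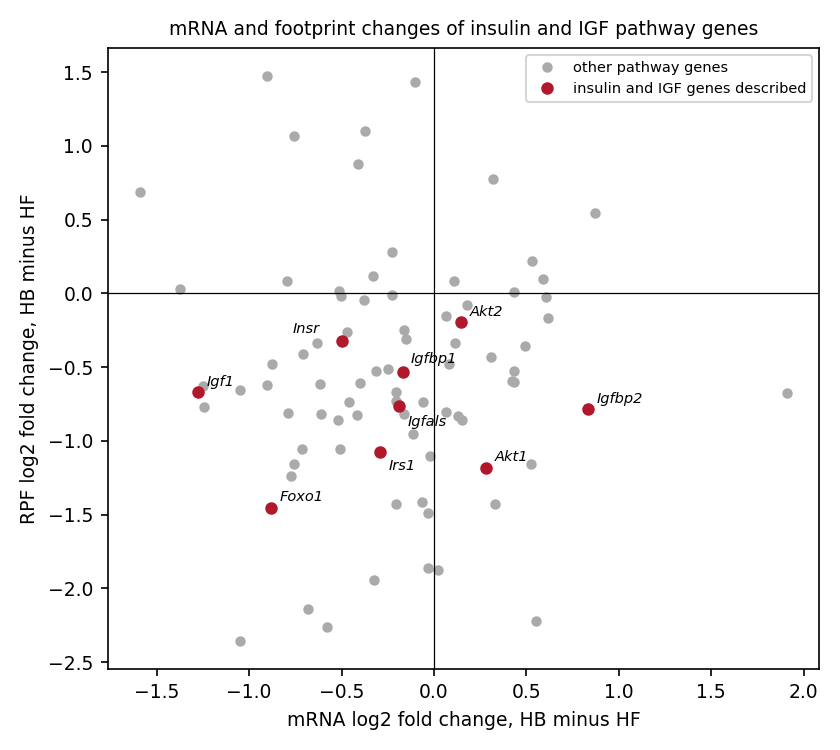
Log2 fold change, HB minus HF, in mRNA (x axis) against RPF (y axis) for 9 members (named points) and 76 other pathway genes (grey points). Foxo1 and Igf1 lie to the lower left, Akt1 and Igfbp2 lie to the lower right with mRNA above 0 and RPF below 0.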

How the data were processed

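RNA-seq and Ribo-seq of liver (HF and HB groups, 2 libraries per group and assay) were analysed from the deposited RPKM per gene, which the authors made by mapping to mm10 with FANSe2. The region counted for RPFs is not stated in the sources used here, but Insr, Irs1, Foxo1 and Igfbp1 had the same recovered length as in RNA-seq. The study reports a larger share of RPFs past the coding sequence (3′ untranslated region) in the high-fat group than with betaine. The part of that share in the RPF and TE changes was not tested. The authors used edgeR, which needs counts and was not used here. RNA-seq held 24539 entries, of which 4 shared a symbol and were left out, and Ribo-seq 25033. Whole reads were recovered from the 1-read steps for 98.8% of RNA-seq and 96.9% of Ribo-seq values above 0, and intervals from them cover counting error only. Only 16.5% and 15.3% of values matched an annotated transcript length. The others took the shortest length that gave whole reads, which may understate the reads of some genes. Recovered reads summed to 93.6% to 99.1% of the estimated library totals. Genes whose RPKM averaged 1 or more were fitted in R 4.3.3 by limma 3.58.1 (group only, intensity trend, two-sided) on log2(RPKM + 1), so that fold changes of low genes are understated. The TE fit used the log2 ratio of RPF to mRNA RPKM, with 1 added to each. The call thresholds follow the study's methods, and Benjamini-Hochberg adjusted p-values over all tested genes are given beside them.

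The members, gene lists and tests were chosen with earlier results of these data known. Named genes are the 10 members, each listed pathway gene called in mRNA, RPF or TE, and Igf1r, Igf2, Igfbp3, Igfbp4 and Ghr. A further gene that this rule names is not reported here. Dcn, Hbb-bs and Pck1 were named after their values were seen. Coordinates are from GENCODE M21 (GRCm38). The alternatives tried were no filter, a minimum average RPKM of 5, a pseudocount of 0.1, a common median, a common sum, no intensity trend, a replicate block, an adjusted p under 0.05, voom on recovered reads, an interaction model and crossed numbers for TE, and leaving out each library. A crossed replicate block for mRNA was chosen after seeing the data. The fits were also run on simulated data, whose outcome is not given and is not used above.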

Additional observations from a re-analysis of the deposited data

How the results depend on the processing

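Of the members' log2 changes under alternatives, 117 of 125 in mRNA, 101 of 129 in RPF and 116 of 125 in TE kept their direction and their side of the threshold. This tally overstates how stable they are, since several alternatives cannot turn a direction. The filters, the intensity trend, the replicate blocks and the adjusted p leave the log2 change itself as it was. Most members were also not called in the main fit. The count of members called lower in mRNA (1) was 0 without the filter and 0 at a common median, and 0 to 1 when a library was left out. Leaving out HF1 gave 0, and leaving out HF2 gave 1, which was then Igfbp1 in place of Igf1. The common median turned the balance of all tested genes in mRNA from 246 higher and 701 lower to 540 and 291, and in RPF from 177 and 879 to 349 and 421. The members called lower in RPF (2) became 0 at the common median, 7 at a common sum, 1 with the replicate block and 0 at an adjusted p under 0.05, and 1 to 5 without a library. With voom the count was 3 (Foxo1, Irs1 and Irs2). The common sum moved the median of all genes in RPF to -1.19. Members called lower in TE (0) became 1 without the filter (Irs2), 2 at a common sum (Akt1 and Igfbp2), and 0 to 1 without a library. Listed genes called higher in mRNA (1) became 0 without the filter, 0 with voom and 2 with the replicate block, and 2 to 2 without a library. Those called lower (3) became 0 without the filter, 0 at the common median, 7 at an adjusted p under 0.05 and 6 with the crossed replicate block, and 1 to 6 without a library. Listed genes called higher in RPF (1) became 2 at the common median, 0 at the common sum, 0 with the replicate block, 2 with voom and 0 at an adjusted p under 0.05, and 0 to 4 without a library. Those called lower in RPF (9) became 3, 27, 5 and 0 at the common median, common sum, replicate block and adjusted p under 0.05, and 1 to 16 without a library. Listed genes called higher in TE (2) became 1 with a pseudocount of 0.1, 0 at the common sum and 0 at an adjusted p under 0.05, and 1 to 4 without a library. Those called lower in TE (2) became 9 at the common sum and 0 at an adjusted p under 0.05, and 0 to 6 without a library. The cause of these changes was not tested, except that leaving out a library leaves a lone library that is assumed to vary like the other group.

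Directions turned for members that were not called. At the common median the log2 fold change became 0.10 for Igfbp1 mRNA, 0.086 for Igfals mRNA, 0.0035 for Insr RPF and 0.13 for Akt2 RPF. At the common sum the log2 TE change became -0.64 for Insr and -0.21 for Igf1. Without a library, Igfbp1 mRNA ran from -1.53 to 1.20, Akt2 RPF from -0.48 to 0.089, Igfals RPF from -2.02 to 0.49, Insr TE from -0.072 to 0.42, Igfbp1 TE from -2.10 to 1.38 (0.05 without HB2) and Igfals TE from -1.67 to 0.52. The cause was not tested.

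Replicate numbers were not found to pair the libraries: across genes, the deviations of HF1 and of HB1 from the means of their groups correlated at -0.104 in mRNA and -0.0138 in RPF. With the replicate block the unadjusted p of Akt1 RPF was 0.0558, the one member call it changed. The crossed replicate block, added after seeing the data, left 1 member called lower in mRNA and gave 474 genes called higher and 1303 lower in all. Depth limits the HB libraries of Ribo-seq most, where the median member had 10 and 9 reads.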
